A study of Mus musculus with 6 samples.

Results

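The 36 genes described here are genes of T cells and natural killer (NK) cells, measured by RNA sequencing in mammary epithelial cell isolates of pubertal female mice. They were chosen by their symbols, not by their levels, and each of the 36 has 1 row with its symbol among the 61880 rows of the count table. The series has 3 samples from transgenic *fat-1* mice and 3 from wildtype (WT) mice, all FVB/NJ females aged 6 to 8 weeks that were kept for life on a modified AIN93G diet with 10% fat by weight (22% of energy) from safflower oil, which is rich in *n*-6 polyunsaturated fatty acids (*n*-6 PUFA). The *fat-1* transgene comes from *Caenorhabditis elegans* and encodes an *n*-3 desaturase, so that *fat-1* mice make *n*-3 PUFA in the whole body from the *n*-6 PUFA that both genotypes eat. The promoter of the transgene is not given in the sources used here, and the transgene itself is not a mouse gene and was not analysed here. Each sample is a pool of the inguinal glands of several mice, from which the methods say the lymph nodes were removed before the glands were digested and the epithelial cells were isolated. The sample titles name *n*-3 PUFA for the *fat-1* samples and *n*-6 PUFA for the WT samples, and the 2 genotypes differ in no other label.

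T cells recognise antigen with the T cell receptor, whose signal is carried into the cell by the CD3 and zeta chains, helped by the coreceptors CD4 or CD8 and started by the kinases Lck and Zap70. NK cells lack this receptor and read target cells with receptors such as NKp46 and NKG2D, and both NK cells and cytotoxic T cells kill with perforin and granzymes, under the control of the T-box factors T-bet and Eomes. In the mammary gland, lymphocytes lie within and beside the ductal epithelium and in the lymph nodes embedded in the fat pad.

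Promoters are shown for 5 members on which the results turn, as the 250 bases before the RefSeq start site (GRCm38.p6), 5′ to 3′ on the strand of the gene. *Cd3g* and *Cd3d* are shown because their start sites lie 1355 bases apart on chromosome 9 on opposite strands, at 44980431 (minus strand) and 44981786 (plus strand). *Cd3e* is shown because it stands for the T cell receptor complex in the ratios, and *Gzma* and *Gzmb* because their changes between samples differed from those of the CD3 genes. Capitals mark matches, on either strand, to TGTGGT (Runx factors), AGGAAG (Ets factors) and CTTTGA (Tcf7 and Lef1), and no 2 of the marked matches overlap.
Cd3g (chr9:44980432-44980681, minus strand): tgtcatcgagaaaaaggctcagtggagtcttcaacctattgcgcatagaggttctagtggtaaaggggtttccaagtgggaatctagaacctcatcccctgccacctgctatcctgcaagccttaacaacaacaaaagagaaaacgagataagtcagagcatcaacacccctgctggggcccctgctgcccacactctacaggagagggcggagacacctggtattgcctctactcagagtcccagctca
Cd3d (chr9:44981536-44981785, plus strand): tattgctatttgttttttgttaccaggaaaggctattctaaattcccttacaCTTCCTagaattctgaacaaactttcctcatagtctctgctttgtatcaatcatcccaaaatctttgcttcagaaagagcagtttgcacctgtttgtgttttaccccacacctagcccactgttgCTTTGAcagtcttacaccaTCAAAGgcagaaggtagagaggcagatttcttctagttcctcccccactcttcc
Cd3e (chr9:45009612-45009861, minus strand): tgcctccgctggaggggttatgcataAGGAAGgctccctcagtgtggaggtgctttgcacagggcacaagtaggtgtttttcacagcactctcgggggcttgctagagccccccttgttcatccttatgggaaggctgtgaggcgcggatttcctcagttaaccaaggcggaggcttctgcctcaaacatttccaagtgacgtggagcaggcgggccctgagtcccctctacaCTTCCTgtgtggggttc
Gzma (chr13:113100982-113101231, minus strand): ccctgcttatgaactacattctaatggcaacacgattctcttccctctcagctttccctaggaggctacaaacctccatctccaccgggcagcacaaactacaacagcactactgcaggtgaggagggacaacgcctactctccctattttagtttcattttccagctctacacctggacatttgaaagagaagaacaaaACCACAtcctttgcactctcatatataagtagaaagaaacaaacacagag
Gzmb (chr14:56262335-56262584, minus strand): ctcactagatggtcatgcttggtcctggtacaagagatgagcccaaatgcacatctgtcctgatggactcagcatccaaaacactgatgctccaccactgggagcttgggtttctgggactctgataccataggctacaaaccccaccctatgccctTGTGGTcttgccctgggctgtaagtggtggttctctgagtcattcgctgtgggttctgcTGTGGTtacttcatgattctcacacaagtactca

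Of the 36 members, 26 had a promoter entry. TGTGGT was found in 9 of the 26 (34.6%) and in 15.9% of all 27025 genes with an entry, AGGAAG in 16 (61.5%) and in 32.3% of all genes, and CTTTGA in 4 (15.4%) and in 15.8% of all genes. A match is a description of the letters, and these shares were not tested. *Gzma* held 1 match and *Gzmb* 2 matches to TGTGGT. *Cd3d* held 1 match to AGGAAG and 2 to CTTTGA, and *Cd3e* held 2 matches to AGGAAG. The matches did not divide the granule genes from the T cell receptor and signaling genes. *Prf1* held 1 match to TGTGGT and 2 to AGGAAG, and *Nkg7* held 1 of each. An entry of *Lck* held 1 match to TGTGGT and 3 to AGGAAG. *Cd3g* held no match to these letters in this window.

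The counts of the 6 samples summed to between 204539059 and 232148824. The assembly that made the table often splits 1 gene over several rows of 1 assembled locus, so the level used here is the sum over the locus, in CPM, the counts scaled to a common sample total. All 36 members passed the filter on low counts. The unit is a pool of cells, so fewer cells of a type and less RNA per cell cannot be told apart, and the *p*-values measure only the spread between pooled samples.

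T cell and NK cell genes were present in every isolate, and their levels varied between the samples of each genotype. No member passed the test between *fat-1* and WT mice. The quasi-likelihood test of edgeR, adjusted over 24061 loci by Benjamini–Hochberg, left 0 of the 36 members and 0.0% of all loci past an adjusted threshold of 0.05. At the unadjusted threshold of 0.05, 0 of 36 members passed, and 274 of all loci did (1.14%), 0.478% higher and 0.661% lower in *fat-1* samples. The levels of the 3 *fat-1* and the 3 WT samples overlapped for all 36 members, while 4.15% of all loci had groups that did not overlap (1.79% with *fat-1* higher and 2.36% with *fat-1* lower). *Fat-1* sample 2 and WT sample 3 were the 2 highest samples for 31 of the 36 members, and *fat-1* sample 1 and WT sample 1 were the 2 lowest for 30.

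**Figure D1:**
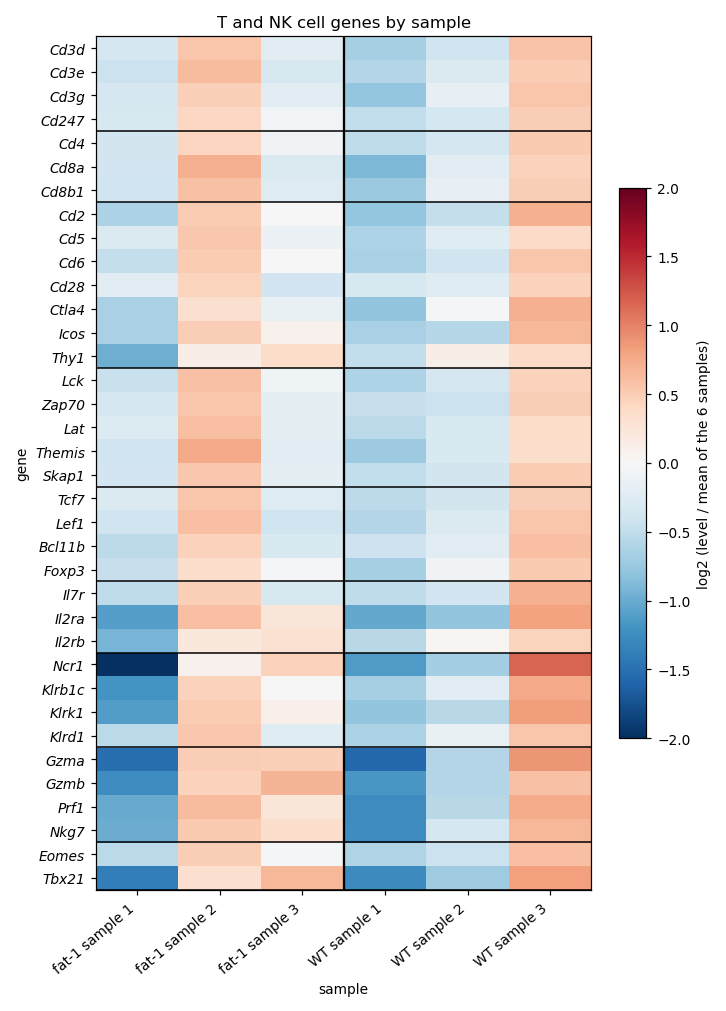
Level of each of the 36 T and NK cell genes (rows, grouped by role) in each of the 6 pooled samples (columns), as log2 of the level divided by the gene's mean over the 6 samples. *Fat-1* sample 2 and WT sample 3 are the 2 highest samples for 31 genes, and *fat-1* sample 3 is near them for the cytotoxic granule genes but not for the CD3 genes.

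The CD3 chains and the zeta chain, which carry the signaling motifs of the T cell receptor, moved together across the samples. *Cd3e* was at 9.69, 20.2 and 10.5 CPM (*fat-1* samples 1 to 3) against 8.73, 10.7 and 18.5 CPM (WT samples 1 to 3). *Cd3d* was at 10.04, 18.7 and 10.96 CPM (*fat-1* samples 1 to 3) against 7.998, 9.68 and 18.9 CPM (WT samples 1 to 3). *Cd3g*, the neighbour of *Cd3d*, was at 7.72, 13.5 and 8.34 CPM (*fat-1* samples 1 to 3) against 5.67, 8.61 and 14.2 CPM (WT samples 1 to 3). In all 3 genes *fat-1* sample 2 and WT sample 3 were about level with each other, and the other 4 samples lay below them. *Cd247*, which encodes the zeta chain, was at 13.2, 21.9 and 15.9 CPM (*fat-1* samples 1 to 3) against 11.7, 12.9 and 23.1 CPM (WT samples 1 to 3). The locus of *Cd247* shares 3007 exon bases with *Pou2f1* on the opposite strand, and since the use of strand is not given in the sources used here, reads of the 2 genes may not be told apart. The log2 fold changes of *fat-1* against WT were 0.12 ± 0.39 (standard error, n = 3 each) for *Cd3d*, 0.09 ± 0.39 for *Cd3e*, 0.05 ± 0.38 for *Cd3g* and 0.10 ± 0.32 for *Cd247*.

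*Fat-1* sample 2 and WT sample 3 were also the 2 highest samples for the coreceptors. *Cd4*, the coreceptor of helper and regulatory T cells, was at 18.1, 31.2 and 22.2 CPM (*fat-1* samples 1 to 3) against 16.4, 18.2 and 33.4 CPM (WT samples 1 to 3). *Cd8a*, one chain of the coreceptor of cytotoxic T cells, was at 11.5, 24.5 and 12.3 CPM (*fat-1* samples 1 to 3) against 8.02, 12.9 and 20.5 CPM (WT samples 1 to 3). *Cd8b1*, the chain that pairs with it, was at 6.395, 12.7 and 7.05 CPM (*fat-1* samples 1 to 3) against 5.05, 7.53 and 11.8 CPM (WT samples 1 to 3). WT sample 1 was the lowest of all 6 samples for these 3 genes, and both genotypes held a low and a high sample. The log2 fold changes were 0.07 ± 0.33, 0.22 ± 0.43 and 0.10 ± 0.39 for *Cd4*, *Cd8a* and *Cd8b1*.

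Adhesion and costimulation molecules came next. *Cd2*, an adhesion receptor that binds CD48 in mice, was at 19.5, 43.3 and 30.03 CPM (*fat-1* samples 1 to 3) against 17.7, 21.9 and 49.4 CPM (WT samples 1 to 3). *Cd28*, the main costimulatory receptor, was at 12.8, 20.2 and 11.4 CPM (*fat-1* samples 1 to 3) against 11.9, 12.6 and 20.5 CPM (WT samples 1 to 3), and was the only member whose lowest sample was *fat-1* sample 3. *Icos*, the inducible costimulator, was at 18.4, 40.5 and 30.7 CPM (*fat-1* samples 1 to 3) against 18.5, 19.4 and 45.8 CPM (WT samples 1 to 3). *Cd28*, *Icos* and *Ctla4*, which encodes an inhibitory receptor for the ligands of CD28, are neighbours on chromosome 1 (GRCm38, plus strand), at 60716800 to 60773359, 60977927 to 61000320 and 60887000 to 60915832. *Ctla4* was at 16.7, 32.8 and 23.6 CPM (*fat-1* samples 1 to 3) against 15.1, 25.6 and 42.9 CPM (WT samples 1 to 3). In this chromosome 1 group WT sample 3 was the highest sample each time, with *fat-1* sample 2 next. *Cd5* and *Cd6*, related scavenger receptors that dampen T cell receptor signals, were between 6.98 and 15.4 CPM and between 9.39 and 21.5 CPM over the 6 samples.

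*Thy1*, a surface glycoprotein of mouse T cells that fibroblasts also carry, had another pair of highest samples. It was at 38.6, 84.01 and 98.8 CPM (*fat-1* samples 1 to 3) against 54.3, 82.7 and 100.2 CPM (WT samples 1 to 3), so that *fat-1* sample 3 was above *fat-1* sample 2. The fibroblast gene *Col1a1* was at 136, 604 and 954 CPM (*fat-1* samples 1 to 3) against 344, 803 and 789.6 CPM (WT samples 1 to 3), and its part in the level of *Thy1* was not tested.

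Of the proximal signaling genes, *Lck*, the kinase that phosphorylates the CD3 and zeta chains, was at 25.6, 52.4 and 33.05 CPM (*fat-1* samples 1 to 3) against 22.9, 27.8 and 48.3 CPM (WT samples 1 to 3). *Zap70*, the kinase recruited to the phosphorylated chains, was at 11.4, 21.4 and 12.6 CPM (*fat-1* samples 1 to 3) against 10.5, 10.7 and 20.3 CPM (WT samples 1 to 3). *Lat*, the adaptor that Zap70 phosphorylates, was at 12.7, 23.3 and 13.4 CPM (*fat-1* samples 1 to 3) against 10.6, 12.5 and 19.9 CPM (WT samples 1 to 3). For these 3 genes *fat-1* sample 2 was the highest of the 6 samples, with WT sample 3 next. *Themis*, which tunes signaling in developing T cells, was at 5.87, 13.1 and 6.698 CPM (*fat-1* samples 1 to 3) against 4.702, 6.29 and 9.904 CPM (WT samples 1 to 3) and had the smallest unadjusted *p*-value of the members by edgeR's quasi-likelihood test, 0.484, with a log2 fold change of 0.29 ± 0.40. *Skap1*, an adaptor that links the receptor to integrins, lay between 8.15 and 16.6 CPM.

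The transcription factors of the T cell lineage showed the same 2 high samples. *Tcf7* (TCF-1), needed for early T cell development and for memory, was at 75.4, 135 and 77.2 CPM (*fat-1* samples 1 to 3) against 63.7, 70.98 and 129 CPM (WT samples 1 to 3). *Lef1*, its relative, was at 9.73, 19.4 and 9.74 CPM (*fat-1* samples 1 to 3) against 8.54, 10.4 and 18.8 CPM (WT samples 1 to 3). *Bcl11b*, which commits cells to the T lineage, was at 8.04, 15.8 and 9.31 CPM (*fat-1* samples 1 to 3) against 8.703, 9.97 and 17.5 CPM (WT samples 1 to 3). *Foxp3*, the factor of regulatory T cells, was at 10.3, 18.1 and 13.97 CPM (*fat-1* samples 1 to 3) against 8.99, 13.5 and 20.5 CPM (WT samples 1 to 3), and 4.65% of the counts of its locus came from the row of *Flicr*, a noncoding RNA that overlaps it. *Foxp3* also shares 1229 exon bases with genes on the opposite strand, such as *Ccdc22*, and *Lef1* shares 1208 with *Gm43352*. As with *Cd247*, reads of these overlaps may not be told apart. The log2 fold changes were 0.13 ± 0.35 for *Tcf7*, 0.04 ± 0.40 for *Lef1*, -0.12 ± 0.36 for *Bcl11b* and -0.02 ± 0.34 for *Foxp3*, each smaller than its standard error.

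Among the cytokine receptors, *Il7r*, the receptor chain for the survival factor interleukin-7, was at 24.7, 48.6 and 28.1 CPM (*fat-1* samples 1 to 3) against 24.6, 26.8 and 57.6 CPM (WT samples 1 to 3). *Il2ra*, the high-affinity interleukin-2 receptor chain of regulatory and activated T cells, was at 18.2, 59.2 and 46.2 CPM (*fat-1* samples 1 to 3) against 19.2, 22.7 and 68.3 CPM (WT samples 1 to 3). *Il2rb*, shared by the receptors for interleukin-2 and interleukin-15, was at 38.5, 84.8 and 89.6 CPM (*fat-1* samples 1 to 3) against 49.8, 75.1 and 99.5 CPM (WT samples 1 to 3). *Il7r* in *fat-1* sample 3 was close to *fat-1* sample 1, whereas *Il2ra* and *Il2rb* there were 2.54 and 2.33 times the level of *fat-1* sample 1. The *Il2rb* locus also takes in *C1qtnf6*, whose row held 32.9% of its counts.

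The NK receptor genes *Ncr1* and *Klrb1c* had the fewest counts of the members in the rows with their symbols. *Ncr1*, which encodes NKp46, had counts of 21, 96 and 121 (*fat-1* samples 1 to 3) against 41, 60 and 195 (WT samples 1 to 3). In CPM this was 0.0996, 0.447 and 0.582 CPM (*fat-1* samples 1 to 3) against 0.192, 0.265 and 0.949 CPM (WT samples 1 to 3). The 95% exact Poisson intervals of the counts, which cover counting error only, were 13 to 32.1 for *fat-1* sample 1 and 169 to 224 for WT sample 3, so the samples differed by more than counting error. *Klrk1* (NKG2D), an activating receptor, was at 2.05, 6.27 and 4.77 CPM (*fat-1* samples 1 to 3) against 2.56, 3.02 and 7.91 CPM (WT samples 1 to 3). *Klrd1* (CD94), the partner of NKG2 receptors other than NKG2D, was at 4.997, 10.6 and 6.13 CPM (*fat-1* samples 1 to 3) against 4.69, 6.56 and 10.6 CPM (WT samples 1 to 3). *Klrb1c* (NK1.1) had 30, 73 and 48 counts in its own row for *fat-1* samples 1 to 3, against 30, 33 and 129 for the WT samples. The locus that holds *Klrb1c* was at 2.03, 6.37 and 4.66 CPM (*fat-1* samples 1 to 3) against 2.92, 3.99 and 7.83 CPM (WT samples 1 to 3), of which 94.2% came from the row of its close relative *Klrb1b*, so the locus level is mostly not that of *Klrb1c*. WT sample 3 was the highest sample for *Ncr1*, *Klrb1c* and *Klrk1*, and the log2 fold changes of *Ncr1* and of the *Klrb1c* locus were -0.31 ± 0.79 and -0.17 ± 0.51.

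The 4 cytotoxic granule genes were 3.34 to 5.51 times higher in WT sample 3 than in WT sample 1, and the CD3 and zeta chain genes 1.98 to 2.51 times. *Gzma* (granzyme A, a tryptase-like protease) was at 2.37, 9.42 and 9.28 CPM (*fat-1* samples 1 to 3) against 2.25, 4.48 and 12.4 CPM (WT samples 1 to 3). *Gzmb* (granzyme B, which cleaves after aspartate and triggers apoptosis) was at 5.83, 18.8 and 21.9 CPM (*fat-1* samples 1 to 3) against 6.16, 9.12 and 20.6 CPM (WT samples 1 to 3). *Prf1* (perforin, which opens the target membrane) was at 1.0999, 3.44 and 2.62 CPM (*fat-1* samples 1 to 3) against 0.925, 1.51 and 3.69 CPM (WT samples 1 to 3). *Fat-1* sample 3 was among the high samples for these genes, and it was the highest of all 6 for *Gzmb*. *Nkg7*, a protein of the granule membrane, was at 0.934, 2.65 and 2.35 CPM (*fat-1* samples 1 to 3) against 0.781, 1.45 and 2.93 CPM (WT samples 1 to 3). The log2 fold changes were 0.14 ± 0.74, 0.38 ± 0.61 and 0.23 ± 0.61 for *Gzma*, *Gzmb* and *Prf1*. Of the T-box factors, *Tbx21* (T-bet, the factor of type 1 responses) was at 2.04, 6.67 and 8.48 CPM (*fat-1* samples 1 to 3) against 2.22, 3.24 and 9.37 CPM (WT samples 1 to 3), and *Eomes* (of NK cells and memory CD8+ T cells) was at 1.697, 3.48 and 2.42 CPM (*fat-1* samples 1 to 3) against 1.63, 1.83 and 3.77 CPM (WT samples 1 to 3). *Tbx21* was high in *fat-1* sample 3, and *Eomes* there lay between the low and the high *fat-1* sample.

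Between genotypes, the log2 fold changes of the 36 members ran from -0.31 (*Ncr1*) to 0.38 (*Gzmb*) with a median of 0.09, beside a median of 0.00 over all loci tested, and the standard errors ran from 0.30 to 0.79. By sign alone 25 members were higher and 11 were lower in *fat-1* samples. The adjusted *p*-value by edgeR's quasi-likelihood test was 1.00 for each member, and 3 against 3 samples cannot give an exact permutation *p* below 0.1. DESeq2 called 8 loci (0.0332%) and edgeR's exact test called 6 (0.0249%) past the adjusted threshold of 0.05, and 0 of the 36 members were among them. The median of the members turned with single samples: leaving out *fat-1* sample 2 gave -0.22, WT sample 1 gave -0.14, WT sample 2 gave -0.06, *fat-1* sample 1 gave 0.29 and WT sample 3 gave 0.52.

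**Figure D2:**
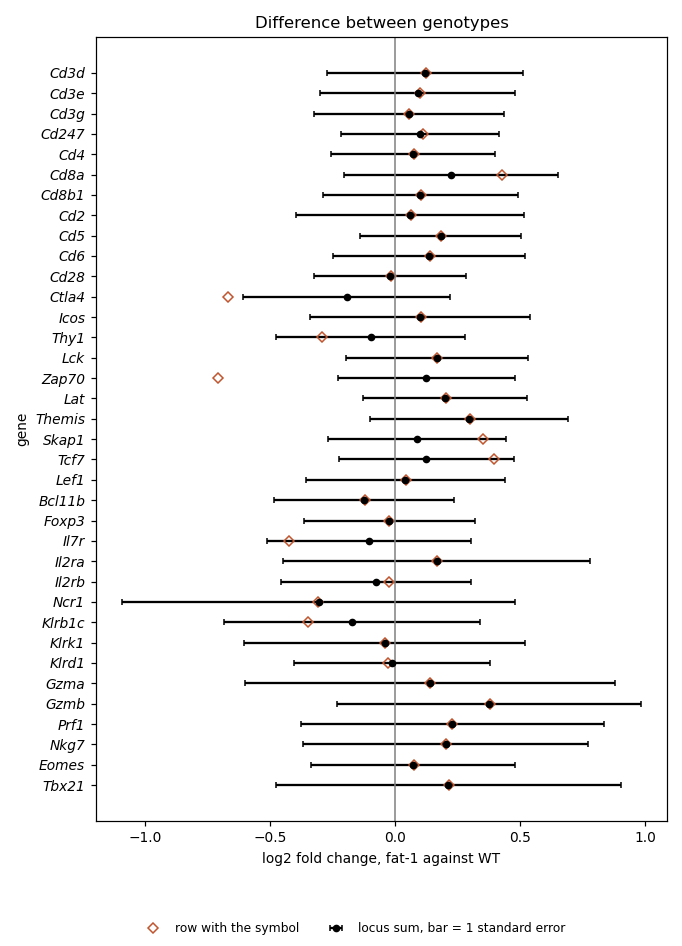
Log2 fold change of *fat-1* against WT for each of the 36 genes. Filled points are sums over the locus with bars of 1 standard error (n = 3 samples of each genotype), and open diamonds are the row with the gene symbol alone, drawn without an error. For all 36 genes the bar of the locus sum crosses 0, and *Zap70* and *Ctla4* have the diamonds farthest from their points.

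The fold from the low to the high sample of a genotype was larger than the fold between genotype means for all 36 members. A range over 3 samples is often wider than a difference of means, and the share over all loci was not computed. The count is therefore only a description. From *fat-1* sample 1 to *fat-1* sample 2 the members were 1.58 to 4.49 times higher (median 2.05), and all 36 were over 1.5 times higher, as were 20.5% of all loci tested. From WT sample 1 to WT sample 3 they were 1.73 to 5.51 times higher (median 2.30), again over 1.5 times for all 36, as were 15.1% of all loci. The share of loci with *fat-1* sample 2 and WT sample 3 as the 2 highest was 16.2%, and the share with *fat-1* sample 1 and WT sample 1 as the 2 lowest was 18.9%. The 5 members with another pair of highest samples were *Thy1*, *Il2rb*, *Ncr1*, *Gzmb* and *Tbx21*, and in each *fat-1* sample 3 was above *fat-1* sample 2. In the row named *Il2rb* this was not so, since that row was at 62.4 CPM in *fat-1* sample 2 and 44.6 CPM in *fat-1* sample 3. These are ratios of single pooled samples, so they have no replicate check.

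*Fat-1* sample 3 divided the members. For 23 members its level was 0.889 to 1.42 times that of *fat-1* sample 1, and these held all 4 CD3 and zeta chain genes (1.08 to 1.204), the 3 coreceptors (1.07 to 1.23), the 5 signaling genes (1.06 to 1.29) and the 4 T cell transcription factors (1.00 to 1.36). For 11 members it was 2.30 to 5.84 times higher: the 4 cytotoxic granule genes (2.38 to 3.92), *Ncr1*, the locus of *Klrb1c*, *Klrk1*, *Tbx21*, *Il2ra*, *Il2rb* and *Thy1*. *Cd2* and *Icos* lay between, at 1.54 and 1.67 times. Of all loci tested, 9.43% were over 2 times and 17.6% over 1.5 times higher in *fat-1* sample 3 than in *fat-1* sample 1. The same 11 members were 1.84 to 5.51 times higher in WT sample 3 than in WT sample 1 (median 3.57), and the 23 were 1.73 to 2.85 times higher (median 2.12). In the rows with the symbols 11 members were again over 2 times higher, with *Ctla4* (3.59 times) in place of *Klrb1c* (1.62 times), and *Skap1*, *Tcf7*, *Il7r* and *Klrd1* joined *Cd2* and *Icos* between. The division was made on these values and was not tested.

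**Figure D3:**
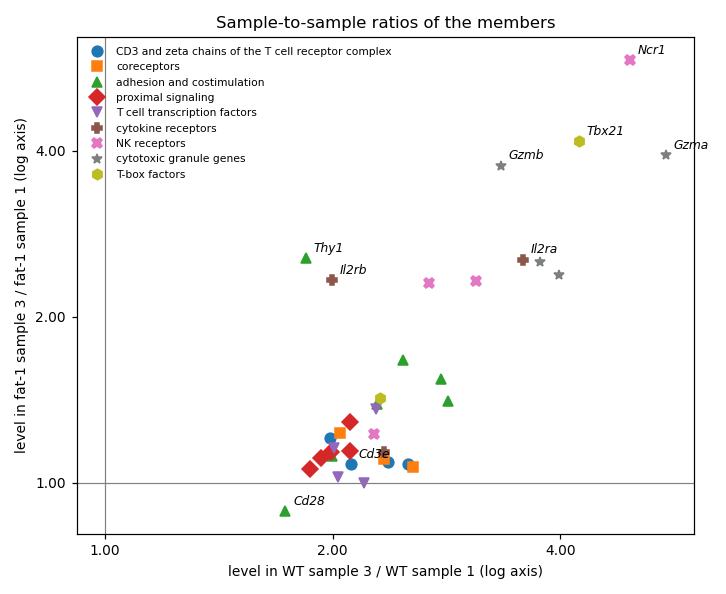
Each point is 1 gene, with its level in WT sample 3 divided by WT sample 1 on the horizontal log axis and its level in *fat-1* sample 3 divided by *fat-1* sample 1 on the vertical log axis. All 36 genes lie right of 1 on the horizontal axis (1.73 to 5.51), and the 11 genes at 2.30 or more on the vertical axis hold all 4 cytotoxic granule genes and none of the CD3 genes. Levels are locus sums, and in the rows with the symbols *Klrb1c* is at 1.62 and *Ctla4* at 3.59 on the vertical axis. Of all loci tested, 9.43% had a ratio above 2 on the vertical axis.

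Ratios of 2 genes within a sample do not depend on the total of the sample. *Gzma* to *Cd3e* was 0.244, 0.465 and 0.885 (*fat-1*) and 0.258, 0.417 and 0.672 (WT), a wide spread within each genotype, with a log2 difference of 0.16 (two-sided exact permutation *p* = 0.8, n = 3 each). *Ncr1* to *Cd3e* was 0.0103, 0.0221 and 0.0555 (*fat-1*) and 0.0219, 0.0247 and 0.0513 (WT), with a log2 difference of -0.38 (exact *p* = 0.8). In both ratios sample 3 of each genotype was the highest. *Cd4* to *Cd8a* was 1.57, 1.27 and 1.81 (*fat-1*) and 2.04, 1.41 and 1.63 (WT), with overlapping genotypes and no correction for the length of the genes (log2 difference -0.13, exact *p* = 0.5). *Foxp3* to *Cd3e* was 1.06, 0.892 and 1.33 (*fat-1*) and 1.03, 1.25 and 1.11 (WT), with overlapping genotypes (log2 difference -0.06, exact *p* = 0.9). *Il7r* to *Cd3e* was 2.55, 2.4002 and 2.68 (*fat-1*) and 2.82, 2.49 and 3.12 (WT) (log2 difference -0.14, exact *p* = 0.3). In the rows with the symbols *Il7r* to *Cd3e* was 0.460, 0.422 and 0.805 (*fat-1*) and 2.10, 0.433 and 0.327 (WT) (log2 difference -0.31, exact *p* = 0.9). *Cd8b1* to *Cd8a* was 0.555, 0.518 and 0.574 (*fat-1*) and 0.6303, 0.583 and 0.577 (WT), the only 1 of 9 ratios in which the genotypes did not overlap. Its log2 difference was -0.12, its exact *p* of 0.1 is the smallest that 3 against 3 samples can give, and after Benjamini–Hochberg adjustment over the 9 ratios every exact *p* was 0.9.

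T cell genes were also set against B cell and leukocyte genes. *Cd3e* to *Ptprc*, the common leukocyte antigen CD45, was 0.0584, 0.0497 and 0.0382 (*fat-1*) and 0.0557, 0.0535 and 0.0464 (WT) (log2 difference -0.11, exact *p* = 0.7). *Cd3e* to *Cd79b*, a chain of the B cell receptor, was 0.157, 0.124 and 0.0819 (*fat-1*) and 0.132, 0.136 and 0.105 (WT) (log2 difference -0.08, exact *p* = 0.8). In both, *fat-1* sample 3 had the lowest value of the 6 samples, and WT sample 3 had the lowest of the WT samples. In the rows with the symbols *Cd3e* to *Cd79b* was 0.196, 1.71 and 0.0975 (*fat-1*) and 2.60, 2.33 and 0.302 (WT). The log2 difference there was -1.94 (exact *p* = 0.2). The row named *Cd79b* thus held only a small part of its locus in *fat-1* sample 2 and in WT samples 1 and 2. With *Cd79a*, the other chain, the log2 difference was -0.07 (exact *p* = 0.8), but the locus of *Cd79a* also takes in *Arhgef1*, and in the rows with the symbols the difference was 1.47 in the other direction (exact *p* = 0.5).

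**Figure D4:**
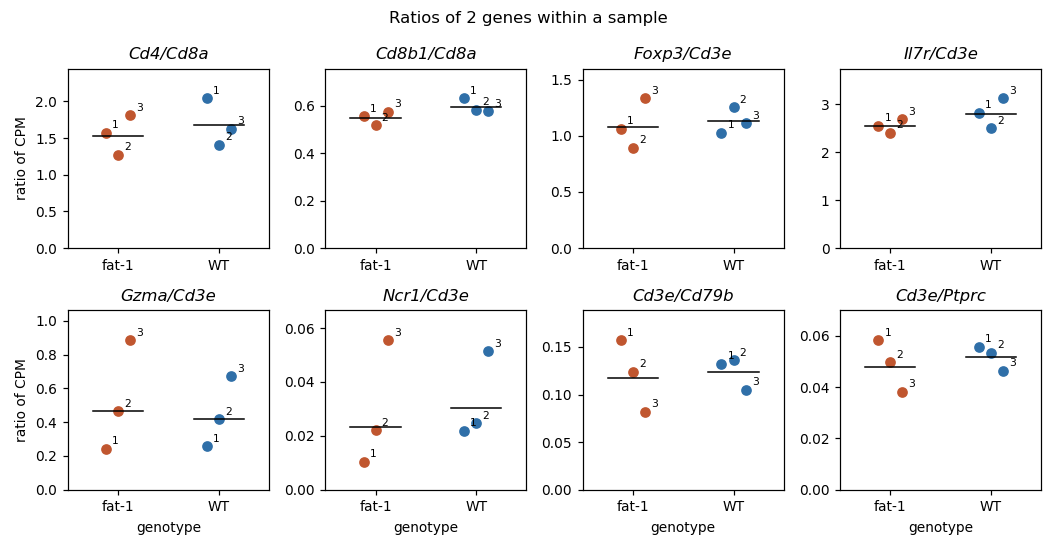
Ratio of 2 genes (CPM over CPM) in each sample for 8 pairs of genes. Points are samples, labelled by their number, and bars are the geometric mean of 3 samples. *Gzma* to *Cd3e* ran from 0.244 to 0.885 with *fat-1* and from 0.258 to 0.672 with WT, and only *Cd8b1* to *Cd8a* has genotypes that do not overlap.

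Per kilobase of annotated exon, which allows genes to be compared, the locus sums of the members were highest for *Tcf7* at 35.03 ± 12.03 CPM per kilobase (SD over the 6 samples), *Thy1* at 25.5 ± 8.28, *Cd2* at 17.4 ± 7.61, *Il2rb* at 17.0 ± 5.57 and *Lck* at 11.96 ± 4.23. The SDs of *Cd2* and *Il2rb*, and of *Lck* and *Ctla4* (11.2 ± 4.47), overlapped. These SDs hold the spread between samples that the genes share, so they do not show whether a pair of genes differed within samples. *Cd3d* was at 7.01 ± 2.66, *Cd4* at 5.77 ± 1.81, *Cd8a* at 4.11 ± 1.71, *Cd3e* at 3.201 ± 1.22 and *Foxp3* at 3.11 ± 0.968 CPM per kilobase. Among the lowest were *Prf1* at 0.856 ± 0.465, *Themis* at 0.664 ± 0.268, *Klrk1* at 0.617 ± 0.322, *Eomes* at 0.595 ± 0.226 and *Ncr1* at 0.274 ± 0.202, of which neighbours in the order again overlapped. Granzyme B, at 9.56 ± 5.21, and granzyme A, at 6.66 ± 4.22, were higher in their lowest sample (4.06 and 2.24) than perforin was in its highest (1.43). Counts of the whole locus were divided by the exons of the named gene. Rows without a symbol or of another gene therefore raise the level of *Tcf7*, *Ctla4*, *Il2rb*, *Klrb1c*, *Klrd1* and *Il7r*, among others. In the rows with the symbols *Thy1* was the highest member at 23.97 ± 8.10, while *Tcf7* was at 3.23 ± 2.88 and *Ctla4* at 1.55 ± 0.920. There *Klrd1* was at 0.854 ± 0.454, against 5.67 ± 2.09 for its locus, and *Il7r* at 1.79 ± 1.10, against 7.52 ± 3.07. In these rows *Il2rb* was at 9.702 ± 5.04, below *Lck* at 11.95 ± 4.23, and *Klrb1c* was the lowest member at 0.0916 ± 0.0646 CPM per kilobase. Exons of all annotated transcripts were joined, which lowers the level of genes with long alternative exons.

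The rows of a locus were filled differently in different samples, which changes what a single row shows. For 21 members the row with the symbol was the only row of its locus, and 15 had other rows, 9 with a row without a symbol and 9 with a row of another symbol. The row named *Zap70* had 6.26% of the counts of its locus in *fat-1* sample 2 (95% Wilson interval 5.60% to 6.999%, counting error only) and 98.4% to 99.8% in the other 5 samples. In that row *Zap70* would be the lowest in *fat-1* sample 2, at 1.34 CPM, where the locus sum was the highest, and its log2 fold change turned from 0.12 to -0.71. The row named *Il7r* had 73.8% (72.6% to 74.95%) of the counts of its locus in WT sample 1 and 10.5% to 29.9% in the others. The row named *Tcf7* had 1.42% (1.24% to 1.64%) in WT sample 1, 1.26% (1.10% to 1.45%) in WT sample 2 and 7.18% to 15.6% elsewhere, so that it was at 5.42, 12.8 and 10.7 CPM (*fat-1* samples 1 to 3) against 0.907, 0.896 and 20.2 CPM (WT samples 1 to 3). Rows without a symbol held 86.1% of the counts of the *Ctla4* locus and 85.0% of the *Klrd1* locus, and the table does not name the gene that these counts belong to. On rows with the symbols, 0 of 36 members passed the unadjusted threshold by edgeR's quasi-likelihood test, beside 2.21% of 30683 rows (1.07% higher and 1.14% lower in *fat-1*). The genotypes overlapped for all 36 rows, while 5.27% of all rows did not overlap, and *fat-1* sample 2 and WT sample 3 were the 2 highest samples for 29 members.

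**Figure D5:**
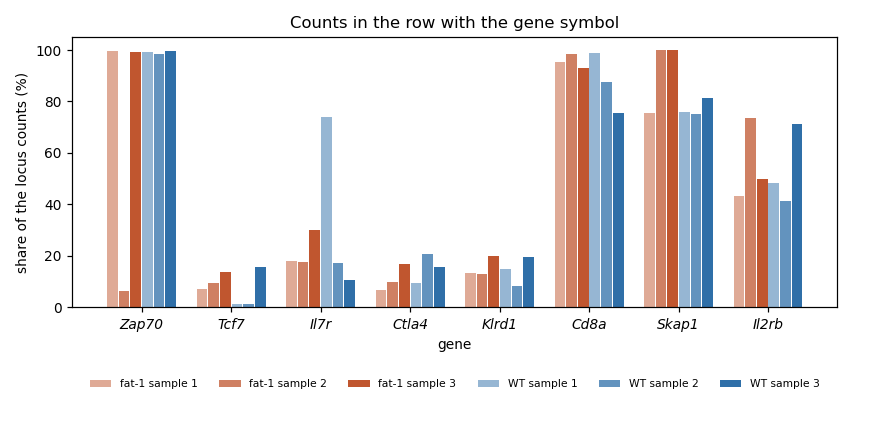
Share (%) of the counts of an assembled locus that lay in the row with the gene symbol, for 8 genes and the 6 samples (bars). *Zap70* drops to 6.26% in *fat-1* sample 2, and *Il7r* reaches 73.8% in WT sample 1.

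Other genes of the T cell and NK cell programs are given by list. Of the T cell receptor constant genes, 4 of 7 listed were in the table and tested, and 0 passed the unadjusted threshold in either direction (median log2 fold change 0.07). Those with the highest CPM were *Trdc*, the delta chain, at 36.6, 101 and 142 CPM (*fat-1* samples 1 to 3) against 65.7, 163 and 139.7 CPM (WT samples 1 to 3), and the locus of *Trbc1* and *Trbc2*, the beta chain, at 55.3, 102 and 62.3 CPM (*fat-1* samples 1 to 3) against 45.7, 59.6 and 104 CPM (WT samples 1 to 3). The beta chain followed the CD3 genes, whereas *Trdc* was highest in WT sample 2, and the row named *Trdc* held only 14.0% to 27.0% of the counts of its locus. Of 28 further signaling and costimulation genes 0 passed (median 0.13), with *Fyn*, a kinase related to Lck, at 85.4, 127 and 112 CPM (*fat-1* samples 1 to 3) against 103, 109 and 118 CPM (WT samples 1 to 3) and *Plcg1*, a phospholipase downstream of LAT, at 64.8, 84.2 and 74.7 CPM (*fat-1* samples 1 to 3) against 70.6, 75.7 and 75.5 CPM (WT samples 1 to 3). Both are widely expressed, and both varied less over the samples than the members did. Of 16 homing and memory genes 0 passed (median 0.12), with *Cd44*, an adhesion receptor, at 289.9, 426 and 439 CPM (*fat-1* samples 1 to 3) against 326, 393 and 377 CPM (WT samples 1 to 3) and *Satb1*, a chromatin organiser of T cells, at 138, 311 and 188 CPM (*fat-1* samples 1 to 3) against 139.6, 146 and 327 CPM (WT samples 1 to 3).

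Of 12 lineage factors 0 passed (median 0.02). The highest locus sums were those of the locus of *Stat4*, which relays interleukin-12 signals, at 187, 553 and 518 CPM (*fat-1* samples 1 to 3) against 190.0, 313 and 585 CPM (WT samples 1 to 3), and of *Ikzf3*, a lymphocyte factor that B cells also express, at 65.8, 169 and 127 CPM (*fat-1* samples 1 to 3) against 66.8, 83.3 and 173 CPM (WT samples 1 to 3). The row named *Stat4* held 0.313% to 24.0% of the counts of its locus, so most of the locus level is not assigned to *Stat4*. *Gata3*, a factor of type 2 helper cells that luminal cells also express, was named after its values were seen and ran the other way across the samples, at 67.5, 26.4 and 50.9 CPM (*fat-1* samples 1 to 3) against 79.8, 54.8 and 26.6 CPM (WT samples 1 to 3). Of 27 NK and cytotoxic genes 25 were tested and 0 passed (median 0.12), with *Ccl5*, a chemokine, at 74.5, 137 and 171 CPM (*fat-1* samples 1 to 3) against 118, 135 and 138 CPM (WT samples 1 to 3) and *Serpinb9*, an inhibitor of granzyme B, at 53.5, 119 and 162 CPM (*fat-1* samples 1 to 3) against 74.7, 109 and 138 CPM (WT samples 1 to 3). *Ifng*, the type 1 cytokine interferon gamma, named after its values were seen, was at 0.645, 3.85 and 6.52 CPM (*fat-1* samples 1 to 3) against 0.678, 0.918 and 3.4003 CPM (WT samples 1 to 3), highest in *fat-1* sample 3, with a log2 fold change of 1.14 ± 0.92. The share of all loci at the unadjusted threshold was 1.14%.

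Markers of some other cells differed across the same samples, and their part in the levels of the members was not tested. The summed locus levels of the myeloid (795 to 964 CPM), endothelial (195 to 262 CPM) and adipocyte genes (109 to 151 CPM) varied less than that of the members. In the rows with the symbols these sums were 108 to 148, 91.3 to 176 and 94.4 to 132 CPM. Most of the myeloid locus level thus lay in rows without these symbols. Of the 13 myeloid genes, 8 were over 1.5 times higher in both *fat-1* sample 2 and WT sample 3 than in sample 1 of the genotype. The fibroblast (1568 to 6131 CPM) and red blood cell sums (52.5 to 151 CPM) varied in other sample orders. The labelled cell type, epithelium, was present in every sample, and its markers ran opposite to the members: the summed level of 10 luminal genes was 3291, 797 and 1458 CPM (*fat-1* samples 1 to 3) against 2778, 1665 and 848 CPM (WT samples 1 to 3). In 9 of the 10 luminal and all 7 basal genes *fat-1* sample 1 was over 1.5 times higher than *fat-1* sample 2, and WT sample 1 over 1.5 times higher than WT sample 3. The luminal keratin *Krt8* was at 899, 210.1 and 344 CPM (*fat-1* samples 1 to 3) against 645, 397 and 221 CPM (WT samples 1 to 3). The leukocyte gene *Ptprc* was at 166, 407 and 274 CPM (*fat-1* samples 1 to 3) against 157, 201 and 398 CPM (WT samples 1 to 3). Of the B cell genes, the locus of *Cd79b* was at 61.7, 163 and 128 CPM (*fat-1* samples 1 to 3) against 66.1, 79.03 and 176 CPM (WT samples 1 to 3). In some samples the row with its symbol held only a small part of these counts. The *Cd79b* locus was over 2 times higher in *fat-1* sample 3 than in *fat-1* sample 1, where *Cd3e* was 1.08 times. The median of the 11 B cell genes for this ratio was 1.82. The summed level of the members was 474, 976 and 719 CPM (*fat-1*) against 462, 594 and 1041 CPM (WT).

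The summed level of 7 lymph node stroma and high endothelium genes was 65.3, 183 and 159 CPM (*fat-1*) against 37.7, 42.1 and 148 CPM (WT), highest in *fat-1* sample 2 and higher in *fat-1* sample 3 than in WT sample 3. *Ccl21a*, which draws CCR7+ T cells into lymph nodes, was at 2.74, 18.3 and 6.799 CPM (*fat-1* samples 1 to 3) against 1.201, 2.96 and 6.35 CPM (WT samples 1 to 3). *Glycam1*, made by high endothelium and also by the secretory mammary epithelium, was at 40.5, 120.4 and 116 CPM (*fat-1* samples 1 to 3) against 24.99, 23.4 and 101 CPM (WT samples 1 to 3), the largest share of the sum in every sample. *Ccl19*, a related chemokine of lymph node stroma, was the only 1 of the 7 to pass the unadjusted threshold, at 0.232, 1.403 and 1.005 CPM (*fat-1* samples 1 to 3) against 0.112, 0.163 and 0.316 CPM (WT samples 1 to 3). It had a log2 fold change of 2.16 ± 0.71, an unadjusted *p*-value of 0.0214 and an adjusted *p*-value of 1.00 by edgeR's quasi-likelihood test. In every sample none of these 7 genes was at 0.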

How the data were processed

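RNA was sequenced in 6 pooled samples, 3 *fat-1* and 3 WT, grouped by their labels. Reads had been aligned by the authors to GRCm38 (HISAT2) and passed to StringTie for assembly and quantification. The deposited matrix holds estimated counts, all whole numbers and not normalized. How coverage became counts, the annotation, and the use of strand are not given in the sources used here. Sample totals were 204539059 to 232148824, so replicates rather than depth limit the precision of all but the rarest members.

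Rows with the same locus number were added together (53912 loci), and 24061 loci passed filterByExpr. The main test was the quasi-likelihood test of edgeR 4.0.16 in R 4.3.3 (TMM, genotype only, newer fit, Benjamini–Hochberg over all loci, threshold 0.05). Its standard error is the log2 fold change over the square root of F. CPM used the TMM-scaled totals. Ratios of genes were tested by two-sided exact permutation. The smallest *p*-value 3 against 3 samples allow is 0.1. Alternatives were DESeq2 1.42.0, edgeR's exact test and older fit, other filters, normalizations and features, the replicate number as a block, and leaving out each sample. The fits were tested on simulated data. Exon lengths and positions are from GENCODE (GRCm38), matched by symbol, and promoters are from RefSeq (GRCm38.p6). The 10 members without a promoter entry are *Cd2*, *Cd4*, *Cd6*, *Cd8b1*, *Cd28*, *Icos*, *Il2rb*, *Klrd1*, *Skap1* and *Thy1*. The protein motifs that had been planned were not analysed here. Some genes of the wider lists are not reported here. Summaries used Python 3.11.15 (pandas 2.3.3, numpy 2.4.6, scipy 1.17.1), and plots used matplotlib 3.10.9.

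The members, gene lists and tests were chosen with earlier results of these data known. All members are described by their levels, fold changes are given for 19 members fixed by name and for any past the unadjusted threshold (none), and *Themis* was added as the member with the smallest *p*-value. Of each further list, the 2 with the highest CPM are named, since none passed.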

Additional observations from a re-analysis of the deposited data

How the results depend on the processing

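With 3 pooled samples of each genotype the spread between samples sets what could be detected, and depth limits only *Ncr1* and the row of *Klrb1c*. Under the 8 alternatives other than leaving out a sample, 150 of 152 fold changes of the 19 named members kept their direction and their side of the threshold. *Zap70* turned to -0.71 in the row with its symbol, which held few of the counts of its locus in *fat-1* sample 2, and *Foxp3* turned to 0.0206 with the replicate block. The number of loci past the adjusted threshold was 0 by edgeR's quasi-likelihood test (274 unadjusted), 8 by DESeq2 and 6 by edgeR's exact test (on single rows 0, 93 (0.303%) and 32 (0.104%) of 30683), and 0 to 1 over the fits without 1 sample, with 1 without WT replicate 1. The cause was not tested. The number of members called was 0 throughout.

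The replicate block gave 0 loci past the adjusted threshold and 119 higher and 257 lower at the unadjusted one, and the median of the members was 0.13 with the block. The correlation of the deviations of equally numbered samples from their genotype means over 24061 loci was 0.80, -0.16 and 0.13 for numbers 1, 2 and 3. *Fat-1* sample 2 correlated best with WT sample 3 (0.79). The deviations within a genotype are not independent and hold any difference that many loci share. They therefore cannot show whether samples of the same number were processed together.

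Leaving out each sample in turn moved the median of the members from -0.22 to 0.52. The log2 fold changes ran from -0.22 to 0.60 for *Cd3d*, -0.33 to 0.49 for *Cd3e*, -0.24 to 0.48 for *Cd3g*, -0.13 to 0.49 for *Cd247*, -0.17 to 0.48 for *Cd4*, -0.22 to 0.64 for *Cd8a*, -0.28 to 0.49 for *Cd8b1*, -0.17 to 0.56 for *Lck*, -0.21 to 0.52 for *Zap70*, -0.21 to 0.53 for *Tcf7*, -0.37 to 0.47 for *Lef1*, -0.48 to 0.26 for *Bcl11b*, -0.27 to 0.34 for *Foxp3*, -0.46 to 0.41 for *Il7r*, -0.76 to 0.73 for *Ncr1*, -0.55 to 0.35 for *Klrb1c*, -0.27 to 1.08 for *Gzma* and -0.13 to 0.99 for *Prf1*. Of the 19 named members only *Gzmb* kept its sign, at 0.04 to 1.04.

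Of the log2 ratios, leaving out each sample gave -0.25 to 0.016 for *Cd4* to *Cd8a*, -0.21 to 0.0756 for *Foxp3* to *Cd3e*, -1.01 to 0.21 for *Ncr1* to *Cd3e*, -0.31 to 0.62 for *Gzma* to *Cd3e*, -0.21 to 0.11 for *Cd3e* to *Cd79a* and -0.25 to 0.058 for *Cd3e* to *Ptprc*, while *Cd8b1* to *Cd8a* (-0.15 to -0.08) and *Il7r* to *Cd3e* (-0.22 to -0.06) kept their sign. In the rows with the symbols *Cd3e* to *Cd79a* turned to 1.47 and *Cd3e* to *Ptprc* to 0.0268. Summing without rows of other symbols and the ratio to *Cd79b* were chosen after seeing the data.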
